A study of Mus musculus with 4 samples.

Results

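The genes described here handle zinc, copper and magnesium: the solute carrier families Slc30 (zinc transporters that lower cytosolic zinc, called ZnT), Slc39 (zinc importers, called ZIP), Slc31 (copper transporters) and Slc41 (magnesium transporters), the copper pumps Atp7a and Atp7b, the copper chaperone Atox1, the metallothioneins Mt1 to Mt4 and the transcription factor Mtf1. A rule on gene names defines them and gave 37 of the 46072 genes in the deposited table, and 36 of these were above 0 in at least 1 library. The 4 libraries came from untreated wild-type mouse brain vessels and are labelled as endothelial cells dissected under a microscope with a laser (LCM), a method that lifts chosen cells from a tissue section. They form 1 group, called replicates 1 to 4, and the labels give no strain, age or sex and do not say whether each library came from its own animal. P-values therefore measure the spread between these libraries, which may be technical. Levels are the authors' FPKM (fragments mapped, scaled for transcript length and for the mapped total of the library), summing to 448678 to 482882 per library, and read depth is unknown.

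Cells keep free zinc and copper very low, because both metals bind proteins tightly and copper also drives oxidation. ZIP proteins bring zinc into the cytosol, ZnT proteins move it out of the cell or into organelles, and metallothioneins, small cysteine-rich proteins, bind the excess. Copper enters through CTR1 (Slc31a1), is passed by chaperones such as ATOX1 to the pumps ATP7A and ATP7B, and must cross the brain endothelium and choroid plexus to reach neurons. Synaptic vesicles of some glutamatergic neurons hold zinc that ZnT3 (Slc30a3) loads.

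The labelled cell type was compared with marker lists in the same libraries, because many of these genes are also active in neurons and glia. The median of the pan-endothelial list of 17 genes was 5.75 ± 0.645 FPKM (SD, n = 4), and its summed level ranged over the libraries from 255 to 328 FPKM. The summed levels were 2340 to 2938 FPKM for 10 pan-neuronal markers, 5008 to 6271 FPKM for 10 oligodendrocyte markers and 851 to 1044 FPKM for 10 astrocyte markers, and all 10 genes of each of these lists exceeded the pan-endothelial median. The 10 choroid plexus markers summed to 11717 to 17221 FPKM, mostly Ttr, and 8 of them exceeded the pan-endothelial median. The 10 microglial markers summed to 238 to 337 FPKM, with a median of 16.7 ± 1.36 FPKM (SD, n = 4), and 9 of them exceeded the pan-endothelial median. The 12 pericyte and smooth muscle markers summed to 216 to 266 FPKM, with 5 above that median and 7 below it. The 7 erythroid markers summed to 1202 to 2017 FPKM, with 4 above it and 2 below it. Of all 25206 genes tested, 27.2% lay above the pan-endothelial median and 65% below it. In none of the 11 marker lists was a gene at 0 in all 4 libraries. Which cells a transcript below came from was not tested, and fewer cells of a type and less RNA per cell cannot be told apart in bulk samples.

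**Figure D1:**
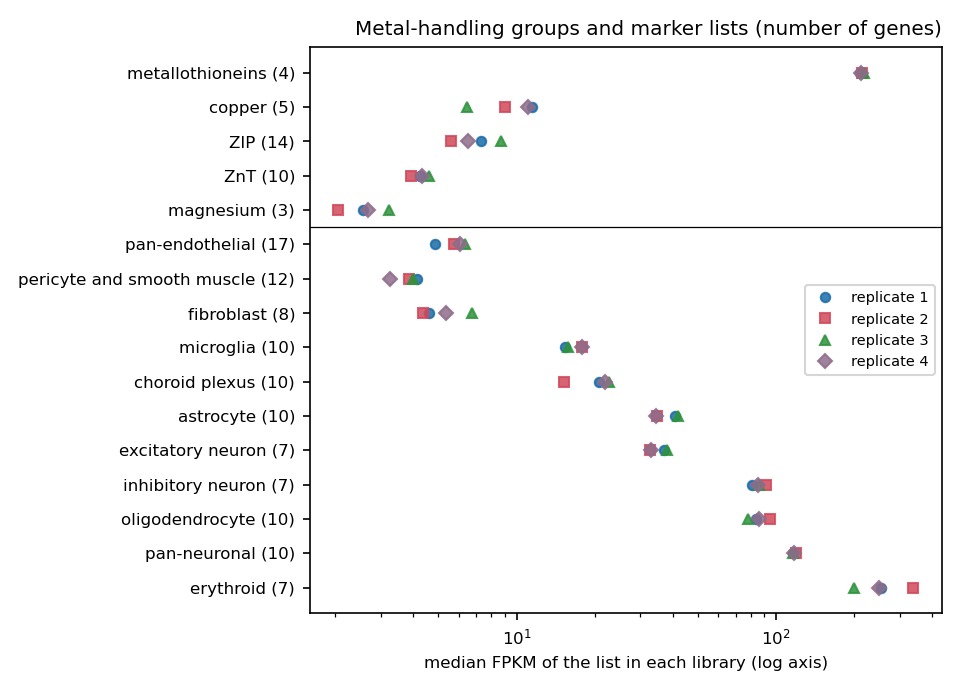
Median FPKM of each metal-handling group (above the line) and of each cell type marker list (below it) in replicates 1 to 4, on a log axis, with the number of genes in brackets. The metallothionein median averages 214 FPKM, beside 5.75 FPKM for the pan-endothelial list and 117 FPKM for the pan-neuronal list, and the medians of the ZnT, ZIP, copper and magnesium groups average 2.63 to 9.51 FPKM.

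Most of the metal-handling genes were measured above a low fixed level, and their levels spanned a wide range, with 3 metallothioneins and Atox1 at the top and Mt4 listed at 0. Of the 36 genes tested, 27 (75%) lay above 1 FPKM, where 47.7% of all 25206 genes tested did, and 5 (13.9%) lay below it, where 40.1% of all genes did (limma on log2(FPKM + 1), adjusted over all genes tested, threshold 0.05). The remaining 4, Slc30a10, Slc30a7, Slc39a1 and Atp7a, passed in neither direction. The median difference from 1 FPKM was 2.02 for the members and 0.27 for all genes tested, on the log2(FPKM + 1) scale. All 37 members are protein-coding but the genes tested include non-coding ones, here and in every such comparison below. Among protein-coding genes above 0 with transcripts over 1000 bases, split into a shorter and a longer class, medians were 5.56 and 3.95 FPKM. The 14 and 19 members there had medians of 7.53 and 6.38 FPKM. Up to 1000 bases the median was 2.72 FPKM, against 159 FPKM for 4 members. These are Atox1, Mt2, Mt3 and also Mt4, which is at 0, unlike the genes they are set against. The share of protein-coding genes above or below 1 FPKM was not tested. Set against the pan-endothelial median of the same library, 17 members (47.2%) lay above and 15 (41.7%) below, where 27.2% of all genes lay above and 65% below. With FPKM of each library rescaled to a sum of 1000000, as TPM has, 31 members lay above 1 FPKM and 3 below it, where 54.3% of all genes lay above and 29.7% below.

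**Figure D2:**
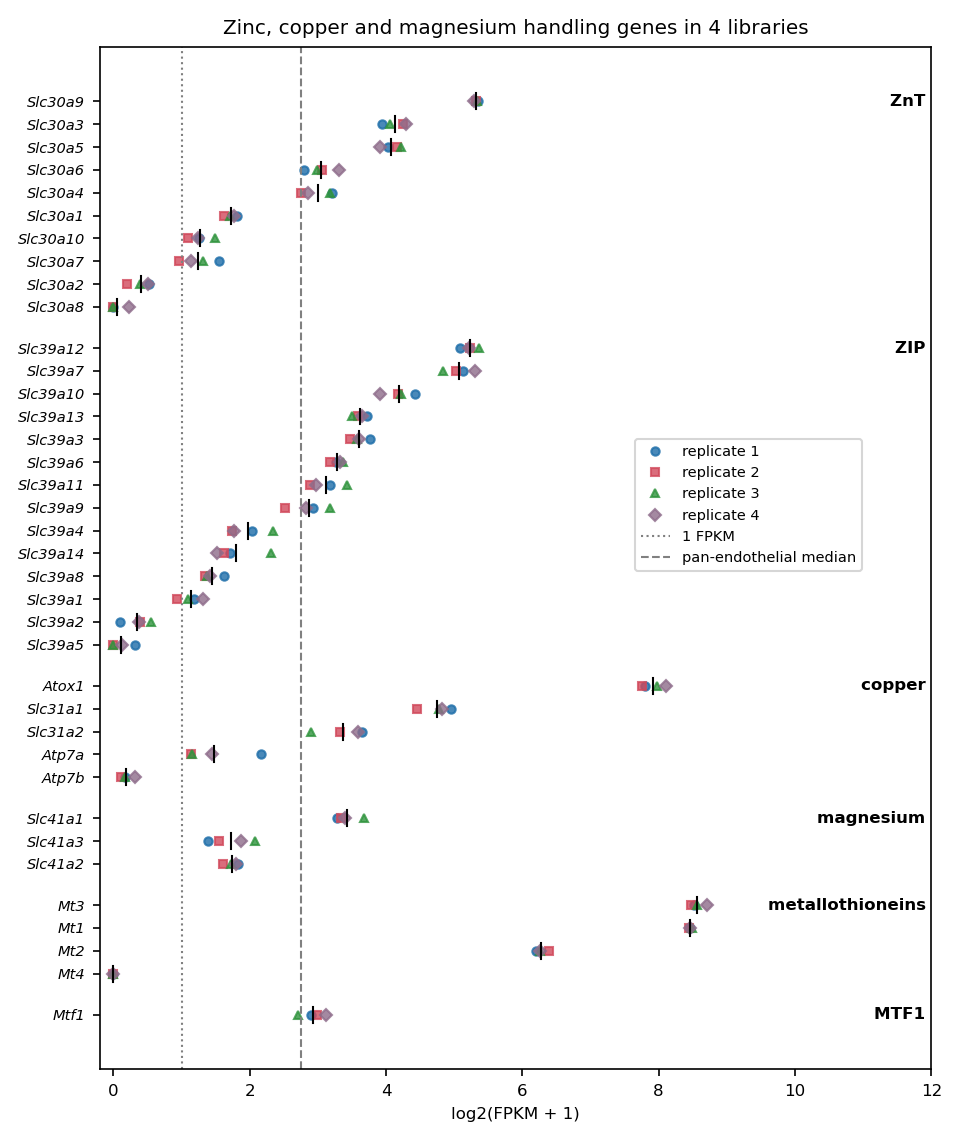
Level of each of the 37 genes in replicates 1 to 4 as log2(FPKM + 1), grouped by role and ordered by mean, with the mean as a black bar. The dotted line marks 1 FPKM and the dashed line the pan-endothelial median. Mt3, Mt1 and Atox1 lie farthest right, and Slc30a8, Slc39a5, Atp7b and Mt4 lie at or near 0.

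Mt3 and Mt1 were the most abundant members and stood at nearly the same level, while Mt2 stood far lower and Mt4 was listed at 0. The 4 genes lie in a row on chromosome 8 (94137197 to 94180327, GRCm38, plus strand) within 43131 bases, in the order Mt4, Mt3, Mt2, Mt1, with 5513 bases between Mt2 and Mt1. Mt1 and Mt2 are the widely expressed, metal-inducible forms, Mt3 (growth inhibitory factor) is the form of the brain, and Mt4 is known from stratified epithelium. Transcription of Mt1 and Mt2 on exposure to metal is driven by MTF1, which binds metal response elements. For that reason a window at the RefSeq start of Mt1, Mt2, Mt3 and of Slc30a1, another classic MTF1 target, is shown. Capitals mark each match to the core of the element, searched as TGCACNC and TGCGCNC on both strands, from 250 bases before to 50 after the RefSeq start (GRCm38.p6, plus strand for all 4).
Mt1 (chr8:94178839-94179138) is given first, then Mt2 (chr8:94172368-94172667), Mt3 (chr8:94152357-94152656) and Slc30a1 (chr1:191906531-191906830).
Mt1: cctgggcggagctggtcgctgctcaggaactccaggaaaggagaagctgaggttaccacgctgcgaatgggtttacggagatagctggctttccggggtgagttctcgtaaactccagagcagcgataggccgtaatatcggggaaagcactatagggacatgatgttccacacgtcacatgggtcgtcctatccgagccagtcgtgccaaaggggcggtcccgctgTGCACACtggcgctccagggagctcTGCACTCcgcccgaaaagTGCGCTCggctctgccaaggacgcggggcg
Mt2: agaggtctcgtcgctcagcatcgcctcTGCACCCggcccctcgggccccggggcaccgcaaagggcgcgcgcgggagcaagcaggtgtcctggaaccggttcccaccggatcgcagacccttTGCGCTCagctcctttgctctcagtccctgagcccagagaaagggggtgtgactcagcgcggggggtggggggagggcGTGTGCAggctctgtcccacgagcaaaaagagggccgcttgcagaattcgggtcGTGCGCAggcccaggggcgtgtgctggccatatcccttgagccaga
Mt3: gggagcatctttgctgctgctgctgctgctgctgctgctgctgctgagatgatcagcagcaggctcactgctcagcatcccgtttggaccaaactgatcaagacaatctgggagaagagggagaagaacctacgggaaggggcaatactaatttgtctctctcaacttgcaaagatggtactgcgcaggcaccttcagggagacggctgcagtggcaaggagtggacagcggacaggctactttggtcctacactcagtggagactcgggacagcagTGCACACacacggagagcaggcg
Slc30a1: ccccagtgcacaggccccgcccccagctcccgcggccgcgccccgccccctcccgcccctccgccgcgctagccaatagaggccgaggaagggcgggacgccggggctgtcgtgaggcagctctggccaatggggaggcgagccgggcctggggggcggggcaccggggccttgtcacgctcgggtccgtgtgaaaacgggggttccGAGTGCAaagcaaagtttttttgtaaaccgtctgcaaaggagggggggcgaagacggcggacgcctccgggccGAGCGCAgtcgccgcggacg
The Mt2 window held 4 matches, the Mt1 window 3, the Slc30a1 window 2 and the Mt3 window 1. Those of Mt1 began at positions -23, 3 and 21 from the RefSeq start. Bases beyond each window were not searched, so these counts do not rank whole promoters.

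In the same way, 38 windows of 33 members were searched, and 22 windows (57.9%) held at least 1 match, where 25.7% of all 32851 windows did. At least 3 matches were found in 4 member windows (10.5%), those of Mt2, Mt1, Slc30a10 and Slc30a4, and in 1.97% of all windows. The core is rich in G and C, and the median GC content was 61.5% in member windows and 52.7% in all windows. Among windows of at least 60% GC, 14 of 23 member windows (60.9%) and 45.2% of all 9690 held a match. Slc30a8, Slc39a14, Slc39a4 and Slc39a6 have no entry in the promoter table. A match is a description of these letters and not a bound site. Atox1, at 241 ± 27.8 FPKM (SD, n = 4), had 0 matches and Slc30a10, at 1.43 ± 0.279 FPKM, had 3. Mt1, at 351 FPKM, also had 3 and Mt2, at 76.7 FPKM, had 4. A relation between matches and level over the members was not tested.

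Mt3 had 367, 356, 378 and 416 FPKM in replicates 1 to 4. Mt1 had 350.1, 347, 359 and 349 FPKM. The ranges of the 2 genes overlap, although Mt3 was the higher in every library, by 0.11 ± 0.10 on the log2(FPKM + 1) scale (SD, n = 4) and by 0.06 without replicate 4. Mt2 had 72.6, 82.7, 76.0 and 75.4 FPKM, clear of both. Mt2 stood at 0.218 ± 0.0137 times Mt1 and Mt3 at 4.96 ± 0.497 times Mt2, each in the same direction in 4 of 4 libraries. These are 3 of 14 pairs compared, and in each pair a mean difference as large as the observed one arose in 2 of the 16 sign patterns of the exact 2-sided sign-flip test. That is the smallest p that 4 libraries allow and is unaltered by adjustment over the 14 pairs, so no pair could reach 0.05. Mt4 was listed at 0 in all 4 libraries.

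Mt3 averaged 379 ± 26.1 FPKM, above 99.5% of all genes tested, Mt1 351 ± 5.09 FPKM, above 99.4%, and Mt2 76.7 ± 4.26 FPKM, above 96.0% (SD, n = 4). On the log2(FPKM + 1) scale they lay 7.57 ± 0.06, 7.46 ± 0.05 and 5.28 ± 0.05 (SE) above 1 FPKM (limma, adjusted p = 9.9e-08 for each). Mt1 varied least of the 31 members averaging at least 1 FPKM, with a coefficient of variation of 1.45%. As shares of the summed FPKM of the family, Mt3 took 46.9% ± 1.77, Mt1 43.6% ± 1.33 and Mt2 9.51% ± 0.692. These are short transcripts: the longest annotated forms of Mt2, Mt3 and Mt1 have 511, 536 and 1085 bases, and FPKM divides by length. That Mt1 form has 1 exon, where those of Mt2 and Mt3 have 3, and which forms were present here was not tested. Among 995 protein-coding genes with transcripts of up to 1000 bases and a level above 0, which had a median of 2.72 FPKM, Mt3 exceeded 96.2% and Mt2 80.6%. An antisense gene, Gm45774, overlaps Mt2 and shares 212 bases with the longest Mt2 transcript. Without a stated strand setting, reads of those bases cannot be told apart. Gm45774 has no level among the deposited values.

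Mtf1, the zinc-sensing factor that switches on metallothionein genes and Slc30a1, had 6.45, 6.91, 5.57 and 7.67 FPKM, a mean of 6.65 ± 0.878. Its log2(FPKM + 1) exceeded that of 1 FPKM by 1.93 ± 0.09 (SE; limma, adjusted p = 1.11e-05), and it passed in neither direction against the pan-endothelial median (difference 0.18, adjusted p = 0.261). Its transcript shares 721 bases with 1110065P20Rik on the opposite strand, which averaged 47.3 FPKM, so its value is uncertain.

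**Figure D3:**
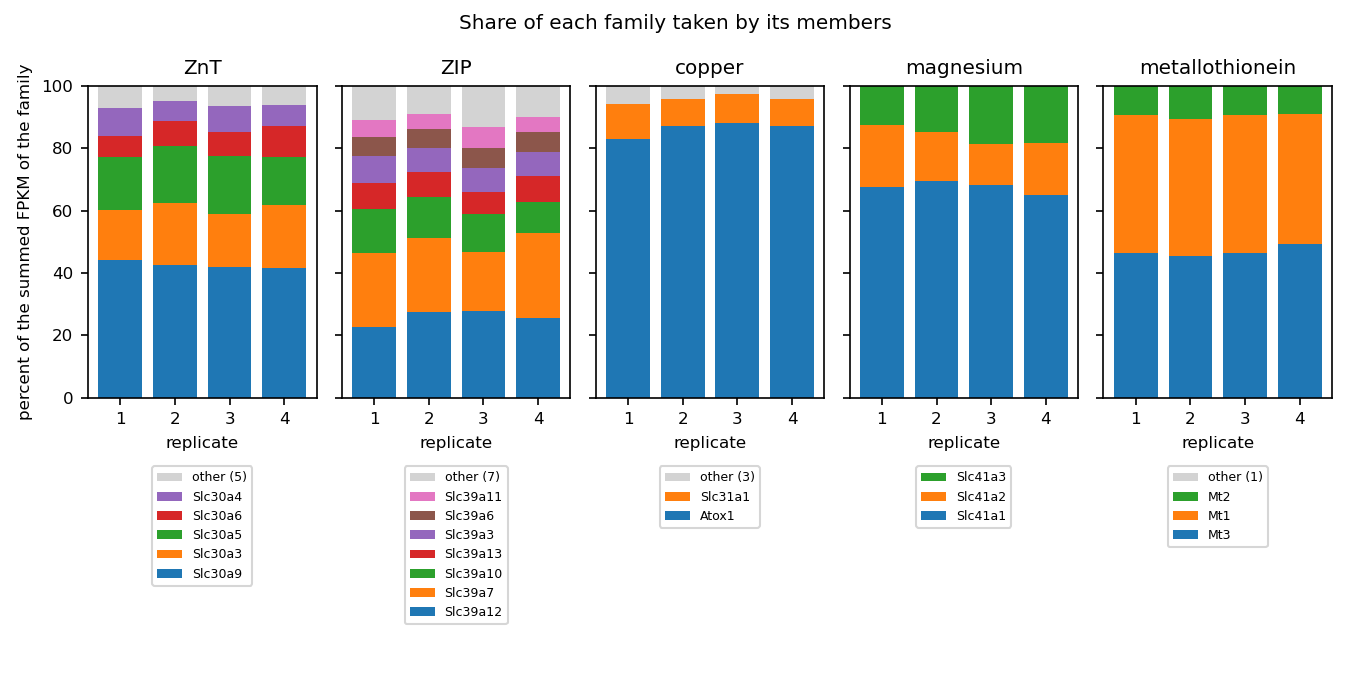
Percent of the summed FPKM of each family taken by its members in replicates 1 to 4, with members averaging under 5% pooled in grey (their number in brackets). Slc30a9 takes 42.7% of the ZnT family, Slc39a12 and Slc39a7 take 25.9% and 23.4% of the ZIP family, Atox1 takes 86.4% of the copper group and Slc41a1 67.6% of the magnesium group.

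Among the copper genes the chaperone and the importer were abundant and the pumps were low. Atox1, which carries copper to the ATP7 pumps (chromosome 11, 55446641 to 55461239, GRCm38), had 222, 215, 252 and 275 FPKM, a mean of 241 ± 27.8. Its longest annotated transcript has 541 bases, against 4900 for Atp7a and 6505 for Atp7b, and FPKM divides by length. It exceeded 99.0% of all genes tested and 92.7% of the 995 protein-coding genes above 0 with transcripts of up to 1000 bases. Slc31a1, the high-affinity importer CTR1 (chromosome 4, 62360727 to 62391769), had 29.9, 21.0, 26.5 and 27.2 FPKM, a mean of 26.2 ± 3.77. Slc31a2, the related CTR2 found mainly on intracellular membranes, lies 62315 bases away on the same strand and had 11.5, 9.05, 6.43 and 11.1 FPKM, a mean of 9.51 ± 2.32. No library of one gene reached the range of the next. All 3 lay above 1 FPKM and above the pan-endothelial median, where 47.7% and 27.2% of all genes tested lay. Atox1 exceeded 1 FPKM by 6.91 ± 0.08 (SE) on the log2(FPKM + 1) scale (limma, adjusted p = 1.04e-07). Slc31a1 was 2.88 ± 0.840 times Slc31a2 (SD, n = 4), in 4 of 4 libraries. The call of Slc31a2 above the pan-endothelial median was lost against the mean of that list (difference 0.22, limma, adjusted p = 0.124).

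Atp7a, the copper pump mutated in Menkes disease (chromosome X, 106027276 to 106124926), had 3.50, 1.21, 1.22 and 1.72 FPKM, a mean of 1.91 ± 1.09, and replicate 1 stood apart from the other 3. It could not be told from 1 FPKM (difference 0.48 ± 0.21 (SE) on the log2(FPKM + 1) scale, limma, adjusted p = 0.0846), and without replicate 1 the difference was 0.25 (adjusted p = 0.188). It passed as above 1 FPKM when genes averaging less than 0.1 FPKM were left out (adjusted p = 0.0168), at a pseudocount of 0.01 (adjusted p = 0.0451) and after rescaling to the fixed sum (adjusted p = 0.00698). Atp7b, the pump mutated in Wilson disease and known chiefly from liver, had 0.123, 0.0793, 0.122 and 0.243 FPKM, a mean of 0.142 ± 0.0703, below 1 FPKM by the same test (difference -0.81 ± 0.04, adjusted p = 1.79e-05). The ranges of the pumps did not overlap: Atp7a was 15.2 ± 9.48 times Atp7b (SD, n = 4), with 28.5 times in replicate 1 and 7.08 as the lowest. Both pumps lay below the pan-endothelial median in 4 of 4 libraries, by -1.27 and -2.56, where 65% of all genes tested lay.

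Of the 10 ZnT genes, 6 lay above 1 FPKM and 2 below it, where 47.7% of all genes tested lay above and 40.1% below, and 2 passed in neither direction. Against the pan-endothelial median 3 (30%) lay above, near the 27.2% of all genes, and 5 below, where 65% of all genes lay. Slc30a9, which moves zinc out of mitochondria (chromosome 5, 67306955 to 67358443, GRCm38), had 39.9, 38.9, 39.4 and 38.0 FPKM, a mean of 39.05 ± 0.821, apart from every other member of the family. Slc30a3, the synaptic vesicle loader, had 14.4, 17.9, 15.6 and 18.5 FPKM, a mean of 16.6 ± 1.94. Slc30a5, which loads zinc into the early secretory pathway, had 15.3, 16.9, 17.6 and 14.1 FPKM, a mean of 15.97 ± 1.59, a range that overlaps that of Slc30a3.
These 3 were the ones above the pan-endothelial median, by 2.57, 1.38 and 1.33 on the log2(FPKM + 1) scale. Excitatory neuron markers stood at a median of 35.2 ± 2.65 FPKM (SD, n = 4) in the same libraries, with Slc17a7, the vesicular glutamate transporter of neurons with zinc-filled vesicles, at 91.5 ± 7.88 FPKM. The part of those neurons in the Slc30a3 level was not tested.

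Slc30a6, the partner of ZnT5, averaged 7.31 ± 1.25 FPKM and Slc30a4, of endosomal vesicles, 7.08 ± 1.24 FPKM (SD, n = 4), with overlapping ranges. Both lay above 1 FPKM. Slc30a4 passed in neither direction against the pan-endothelial median (difference 0.25, limma, adjusted p = 0.106). Slc30a6 did not pass either (difference 0.29, limma, adjusted p = 0.0567). It passed as above it without replicate 1 (adjusted p = 0.0467), without replicate 3 (adjusted p = 0.0467) and at pseudocounts of 0.1 and 0.01 (adjusted p = 0.0417 and 0.0349) and without the mean-variance trend (adjusted p = 0.0332), and against the mean of the list it lay at -0.10.

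Slc30a1, the exporter of the plasma membrane and itself a target of MTF1, had 2.51, 2.09, 2.28 and 2.40 FPKM, a mean of 2.32 ± 0.180, above 1 FPKM by 0.73 ± 0.11 (SE) on the log2(FPKM + 1) scale (limma, adjusted p = 0.00149). Slc30a10, known as an exporter of manganese (chromosome 1, 185454848 to 185468762), had 1.38, 1.15, 1.81 and 1.36 FPKM, a mean of 1.43 ± 0.279, none of which reached the lowest library of Slc30a1. Slc30a10 could not be told from 1 FPKM (difference 0.27, adjusted p = 0.0797) and neither could Slc30a7, of the Golgi, at 1.40 ± 0.421 FPKM (difference 0.25, adjusted p = 0.149), though both passed as above it after rescaling to the fixed sum (adjusted p = 0.00205 and 0.00504), and Slc30a10 also without the mean-variance trend (adjusted p = 0.0225). All 3 lay below the pan-endothelial median in 4 of 4 libraries. Slc30a10 was 0.616 ± 0.120 times Slc30a1, Slc30a3 was 7.23 ± 1.22 times Slc30a1 and Slc30a5 12.2 ± 4.0 times Slc30a7 (SD, n = 4), in every library. Slc30a1 and Slc30a10 each overlap a gene on the opposite strand, 1700034H15Rik at 0.302 FPKM and Gm2061 at 1.01 FPKM.

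Slc30a2 and Slc30a8 were the lowest of the ZnT genes. Slc30a2, which supplies zinc to milk, averaged 0.328 ± 0.132 FPKM, below 1 FPKM by limma (adjusted p = 0.000594), a call lost after rescaling (adjusted p = 0.13), and Slc30a4 was 24.6 ± 10.4 times as high (SD, n = 4). Slc30a8, the transporter of insulin granules, was listed at 0 in replicates 1 to 3 and at 0.171 FPKM in replicate 4, below 1 FPKM by limma (adjusted p = 1.55e-05). Both lay below the pan-endothelial median in 4 of 4 libraries.

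Of the 14 ZIP genes, 11 lay above 1 FPKM and 2 below it (47.7% and 40.1% of all genes tested), and 1 passed in neither direction. Against the pan-endothelial median 7 lay above and 6 below (27.2% and 65% of all genes). Slc39a12, a ZIP known from brain (chromosome 2, 14388316 to 14494977, GRCm38), had 32.8, 36.7, 40.3 and 36.4 FPKM, a mean of 36.5 ± 3.05. Slc39a7, which releases zinc from the endoplasmic reticulum (chromosome 17, 34028269 to 34031682), had 34.1, 31.5, 27.5 and 38.7 FPKM, a mean of 32.9 ± 4.69, so the 2 leading genes overlap. Slc39a10 (chromosome 1, 46807544 to 46892852) had 20.6, 17.1, 17.7 and 14.0 FPKM, a mean of 17.4 ± 2.70, apart from both and from Slc39a13, the next in order. They lay 4.23, 4.07 and 3.19 above 1 FPKM on the log2(FPKM + 1) scale (limma, adjusted p = 1.69e-07, 4.59e-07 and 1.6e-06) and 2.48, 2.33 and 1.44 above the pan-endothelial median. Slc39a7 shares 2048 bases at 100% identity with the overlapping transcript Gm20427 on the same strand, at 11.7 FPKM, so the split of reads between them is uncertain. Astrocyte markers, which are relevant because Slc39a12 is reported in astrocytes, had a median of 38.0 ± 3.94 FPKM in these libraries (SD, n = 4), and their part in its level was not tested.

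Slc39a13, of the Golgi and vesicles, averaged 11.3 ± 0.760 FPKM and Slc39a3, of the plasma membrane, 11.2 ± 1.07 FPKM, and they overlap. Slc39a6, which pairs with ZIP10, averaged 8.75 ± 0.573 FPKM and was 0.515 ± 0.0984 times Slc39a10 (SD, n = 4), lower in 4 of 4 libraries. All 3 lay above the pan-endothelial median, but Slc39a6 did not pass against the mean of that list (difference 0.14, limma, adjusted p = 0.229).
Slc39a11 averaged 7.75 ± 1.5 FPKM and lay above the pan-endothelial median by 0.37 (limma, adjusted p = 0.016). That call was lost without replicate 1 (adjusted p = 0.0737), without replicate 3 (adjusted p = 0.0929) and against the list mean, where the difference was -0.03. Slc39a9, of the trans-Golgi, averaged 6.38 ± 1.36 FPKM and passed in neither direction (difference 0.12, adjusted p = 0.474). It shares 459 bases with Erh on the opposite strand, at 115 FPKM, while Slc39a13 shares 100 bases with Psmc3, at 120 FPKM, so both values are uncertain without a strand setting.

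The ZIP genes known for manganese transport and for uptake from the gut stood below the pan-endothelial median, where 65% of all genes tested lay. So did Slc39a1, Slc39a2 and Slc39a5. Slc39a14, which imports manganese, zinc and iron, had 2.27, 2.09, 3.97 and 1.88 FPKM, a mean of 2.55 ± 0.960, with replicate 3 the highest. Slc39a8, its closest relative and also a manganese importer (chromosome 3, 135825279 to 135888572), had 2.08, 1.55, 1.59 and 1.66 FPKM, a mean of 1.72 ± 0.243. Slc39a8 was lower than Slc39a14 in 4 of 4 libraries, by -0.35 ± 0.40 on the log2(FPKM + 1) scale (SD, n = 4) and by -0.16 without replicate 3, and their ranges overlap. Both lay above 1 FPKM (limma, adjusted p = 0.007 for Slc39a14 and 0.0149 for Slc39a8), but the call of Slc39a8 was lost without replicate 1 (adjusted p = 0.0582) and without replicate 4 (adjusted p = 0.054).
Slc39a4, the intestinal zinc importer, averaged 2.99 ± 0.805 FPKM and was also above 1 FPKM (adjusted p = 0.00155). Slc39a12 was 12.8 ± 2.98 times Slc39a4. All 3 of Slc39a4, Slc39a8 and Slc39a14 lay below the pan-endothelial median in 4 of 4 libraries.

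Slc39a1, a widely expressed importer of the plasma membrane, averaged 1.20 ± 0.242 FPKM (SD, n = 4) and could not be told from 1 FPKM (limma, adjusted p = 0.315), though it passed as above it after rescaling (adjusted p = 0.00484). It stood at 0.107 ± 0.0184 times Slc39a3. A pseudogene copy, Slc39a1-ps, matches 973 of its bases at 97.7% identity and was listed at 0, so reads of Slc39a1 could be shared with it. Slc39a2 had 0.0747, 0.311, 0.465 and 0.292 FPKM, a mean of 0.286 ± 0.161, below 1 FPKM, a call lost after rescaling (adjusted p = 0.0761), and 151 of its bases overlap Mettl17 on the same strand, so its value is uncertain. Slc39a5, known from pancreas, liver and gut, was the lowest of the family at 0.241 FPKM in replicate 1, 0.0903 FPKM in replicate 4 and 0 in replicates 2 and 3, below 1 FPKM by limma (adjusted p = 5.42e-05). All 3 of Slc39a1, Slc39a2 and Slc39a5 lay below the pan-endothelial median in 4 of 4 libraries.

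**Figure D4:**
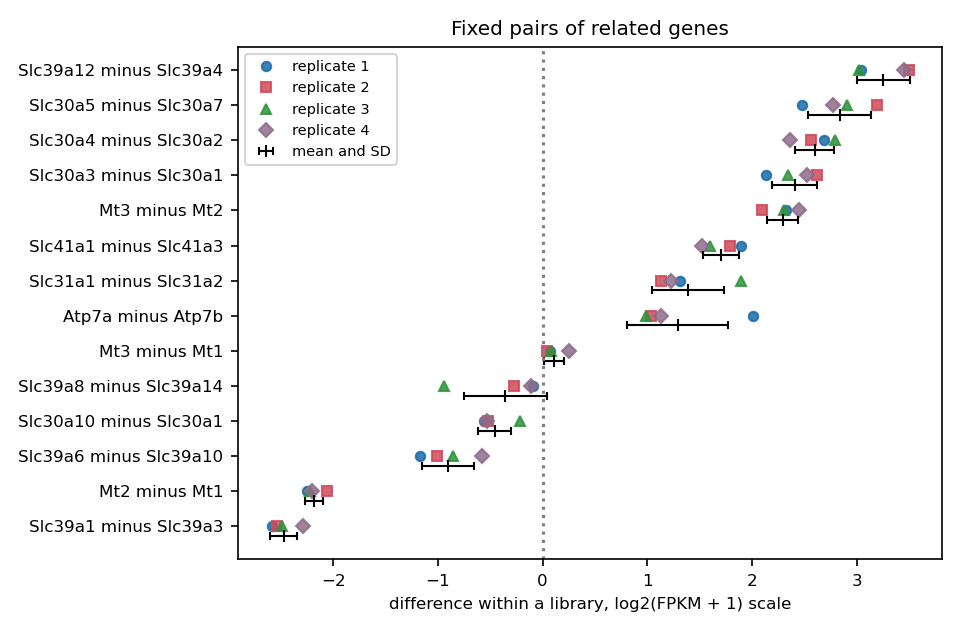
Difference between the genes of each of 14 fixed pairs within replicates 1 to 4, on the log2(FPKM + 1) scale, with the mean and SD in black below the points. In every pair all 4 libraries lie on the same side of 0, and Mt3 minus Mt1, at 0.11, lies nearest to it.

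The 3 magnesium transporters all lay above 1 FPKM, where 47.7% of all genes tested lay, and 1 of them lay above the pan-endothelial median, where 27.2% did. Slc41a1, the sodium-dependent magnesium exporter of the plasma membrane (chromosome 1, 131827493 to 131848865, GRCm38), had 8.73, 9.08, 11.8 and 9.53 FPKM, a mean of 9.78 ± 1.38, and its log2(FPKM + 1) exceeded that of 1 FPKM by 2.42 ± 0.09 (SE; limma, adjusted p = 3.44e-06). Slc41a3, which exports magnesium from mitochondria, had 1.61, 1.92, 3.23 and 2.67 FPKM, a mean of 2.36 ± 0.732. Slc41a2 had 2.55, 2.06, 2.29 and 2.48 FPKM, a mean of 2.35 ± 0.222, within the range of Slc41a3. Slc41a1 was 4.34 ± 0.888 times Slc41a3 (SD, n = 4) and stood clear of both. Slc41a2 and Slc41a3 lay below the pan-endothelial median by -1.01 and -1.03.

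Among members averaging at least 1 FPKM, replicate 2 was seldom the highest library. Of these 31 genes, 1 (3.23%), Mt2, was highest in replicate 2, where 29.2% of all 13654 genes at that level were, and 17 (54.8%) were lowest there, where 27.5% of all genes were. After rescaling to the fixed sum, 2 of the 31 (6.45%) were highest and 14 (45.2%) lowest in replicate 2, where 31.5% and 25.3% of all genes at that level were. Marker lists moved as well: in replicate 2 the choroid plexus sum was 11717 FPKM, against 14326, 16291 and 17221 FPKM in replicates 1, 3 and 4, while the oligodendrocyte sum was 6271 FPKM, against 5008, 5302 and 5774 FPKM, and the erythroid sum 2017 FPKM, against 1427, 1202 and 1477 FPKM. The pan-neuronal sum was 2938 FPKM in replicate 2, against 2506, 2340 and 2504 FPKM, and the pan-endothelial sum 328 FPKM, against 255, 291 and 285 FPKM. A few high genes weigh most in such sums. In replicates 1 to 4 the pan-neuronal medians were 116.3, 119.0, 116.1 and 117.2 FPKM and the pan-endothelial medians 4.86, 5.74, 6.35 and 6.04 FPKM. The choroid plexus median was lowest in replicate 2, and the oligodendrocyte and erythroid medians were highest there, as their sums were. The part of these cell types in the pattern was not tested. The median coefficient of variation over the libraries was 14.1% for these members and 16.9% for all genes at that level. The highest, 56.7%, was that of Atp7a.

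Other genes of copper biology ranged as widely. Of 24 copper-dependent and copper-handling genes, 17 lay above 1 FPKM and 5 below it by limma (47.7% and 40.1% of all genes tested), with 2 passing in neither direction. The highest were Prnp, the copper-binding prion protein, at 475.5 ± 43.9 FPKM, Slc25a3, a mitochondrial carrier of phosphate and copper, at 267 ± 13.5 FPKM, App, the amyloid precursor protein, at 233 ± 5.71 FPKM, and Cox17, the copper chaperone of cytochrome oxidase, at 192 ± 20.6 FPKM (SD, n = 4). The lowest were Dbh, the copper enzyme of noradrenaline synthesis, at 0.0813 FPKM in replicate 2 and 0 in the others, and Loxl2, a lysyl oxidase, at 0.287 ± 0.0833 FPKM. The other 3 below 1 FPKM were Lox, also a lysyl oxidase, and the metalloreductases Steap3 and Steap4, and without replicate 2 the number below 1 FPKM was 3.

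Of 17 further magnesium channels and transporters, 16 were above 0, of which 14 lay above 1 FPKM, where 47.7% of all genes tested did, 1 below it, where 40.1% did, and 1 in neither direction. Tusc3, an oligosaccharyltransferase subunit also described as a magnesium transporter, was highest at 190.1 ± 20.7 FPKM, followed by Nipa1 at 18.3 ± 2.91 FPKM, Nipa2 at 15.7 ± 1.52 FPKM and Magt1, the relative of Tusc3, at 8.16 ± 1.02 FPKM (SD, n = 4). Trpm6, the epithelial magnesium channel, was below 1 FPKM at 0.169 ± 0.0759 FPKM, and Nipal1 was listed at 0 in all 4 libraries. Without replicate 3 the number below 1 FPKM was 2.

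Of 17 zinc enzymes, sensors and buffers, 13 lay above 1 FPKM and 2 below it, beside 47.7% and 40.1% of all genes tested, and 2 passed in neither direction. Enpp2, the secreted zinc enzyme autotaxin, averaged 726 ± 114 FPKM, Car2, a zinc-dependent carbonic anhydrase, 312 ± 12.9 FPKM, S100b, an astrocyte protein that binds calcium and zinc, 112 ± 7.97 FPKM, and Car4, a carbonic anhydrase of capillary surfaces, 29.3 ± 3.58 FPKM (SD, n = 4). Mmp9, a zinc protease, at 0.221 ± 0.175 FPKM, and Zfp658, at 0.600 ± 0.147 FPKM, were the lowest, and without replicate 2 the number below 1 FPKM was 1.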

How the data were processed

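RNA was sequenced from 4 LCM-dissected samples of mouse brain vessels, enriched for mRNA and primed at random, per the labels' protocols. The authors deposited FPKM for 46072 genes. The tools listed in the submitters' processing notes are HISAT2 2.2.1, StringTie 2.2.1, SAMtools and bcl2fastq 2.20, with GRCm38 as the build. For the role of each tool, the annotation, filters, strand setting and handling of multiply matching reads, the answer is not given in the sources used here. Because FPKM is scaled by the mapped total, the share taken by the highest genes affects every other value. Values as small as 1e-06 show no whole-read steps, so depth is unknown and no counting interval is given.

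The name rule uses no measured value, but the rule, gene lists and pairs were chosen with earlier results of these data known. All listed genes were found, each once, and 0 columns were left out. limma 3.58.1 in R 4.3.3 tested log2(FPKM + 1), with a pseudocount of 1, for 25206 genes above 0 in any library, with a mean-variance trend and Benjamini-Hochberg adjustment at 0.05, against 1 FPKM and against each library's pan-endothelial median. For the second comparison limma estimated an infinite prior weight, so its spread is that of all genes pooled and its p-values are very small. Calls, differences and library counts are given there, with p near the threshold. The pseudocount understates differences of low genes. Pairs had an exact sign-flip test. GENCODE M21 (GRCm38), which held all 37 members, gave positions and lengths. Near-identical transcripts came from BLAST+ 2.17.0 at 95% identity or more over at least 100 bases, and promoters from RefSeq (GRCm38.p6).

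Every member is named. Values in every library are given for the 3 highest and the lowest of each role group and for Slc30a1, Slc30a3, Slc30a10, Slc39a8, Slc39a12, Slc39a14, Atp7a, Atp7b and Mtf1, and from each related list the 4 highest and 2 lowest genes are named. Slc39a2, Lox, Steap3, Steap4 and the markers Slc17a7 and Ttr were added after their values were seen. Alternatives covered the pseudocount, filters, trend, scaling, list mean and each library left out. Figures were drawn with matplotlib 3.10.9.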

Additional observations from a re-analysis of the deposited data

Results flagged for a closer look

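In a group of 4 libraries, a value was singled out where the gap between the highest or lowest library and its neighbour exceeded Dixon's 95% critical share of the whole range. Of 127 sets of 4 values examined, 7 met this, and chance gives about 1 in 20. Among members, Slc30a8 was listed at 0.171 FPKM in replicate 4 and at 0 in the others. Among pairs, Atp7a minus Atp7b was 2.0 in replicate 1 on the log2(FPKM + 1) scale and 0.99 to 1.13 in the others, and Slc30a10 minus Slc30a1 was -0.22 in replicate 3 and -0.56 to -0.52 in the others. Among related genes, Loxl2 had 0.412 FPKM and Mmp2 2.25 FPKM in replicate 1, Tmem163 had 9.66 FPKM in replicate 3, and Dbh had 0.0813 FPKM in replicate 2, each the highest of its 4 libraries. A gene listed at 0 in all libraries but 1, as Slc30a8 and Dbh were, meets the rule whatever its level. The rate of 1 in 20 does not hold for such genes.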

How the results depend on the processing

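The 36 tested members kept their direction from 1 FPKM under each alternative in which they were tested (the 0.1 FPKM filter leaves out Slc30a8 and Slc39a5, and Slc30a8 is at 0 without replicate 4). Calls changed for 6 of them after rescaling to the fixed sum, which adds 1.05 to 1.16 to log2 FPKM and moved the median of all genes tested to 0.99, against 0.27 as deposited. The number below 1 FPKM was 5 as reported and 3 both with genes averaging at least 0.1 FPKM and after rescaling. Against the mean of the pan-endothelial list in place of its median, the differences changed sign for Slc30a4 (-0.14), Slc30a6 (-0.10), Slc39a9 (-0.28), Slc39a11 (-0.029) and Mtf1 (-0.22), and of these Slc39a11 alone had been called; the cause was not tested. With 1 library left out at a time, 26 to 27 members lay above 1 FPKM and 14 to 15 below the pan-endothelial median. All 14 pair differences kept their direction, but low partners depend on the pseudocount: Atp7a minus Atp7b was 1.29 at a pseudocount of 1 and 3.62 at 0.01. No paired analysis was possible because the series has 1 group. In the related lists, the number below 1 FPKM ranged over all alternatives from 2 to 5 for copper and from 1 to 2 for magnesium and zinc. Depth is unknown, so values near 0 carry no stated precision.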
